A study of Homo sapiens with 9 samples.

Results

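The genes described here are those of the amino acid arm of the ATF4 stress response: ATF4 itself, the transcription factors that work with it, stress effectors, and the enzymes and transporters that supply amino acids and one-carbon units. They were taken as a list of 36 gene symbols, chosen with earlier results of these data known. The symbols were looked up in the deposited counts of an RNA-seq experiment, with no value used in the look-up. Of the 36 symbols, 32 were among the 11350 genes of the table. ALDH1L2, VLDLR, CBS and NUPR1 were not, and are not analysed here.

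ATF4 is a bZIP transcription factor whose protein is made mainly under stress. Kinases that sense amino acid shortage, unfolded proteins, viral RNA or a lack of heme phosphorylate the initiation factor eIF2, which lowers general translation and, through short upstream reading frames in the ATF4 mRNA, favours translation of ATF4. ATF4 pairs with C/EBP and other bZIP proteins and binds C/EBP-ATF response elements near genes for asparagine, serine, glycine and proline synthesis, amino acid uptake, tRNA charging and, under lasting stress, cell death. The mRNA of ATF4 is measured here, and not its protein, nor the phosphorylation of eIF2.

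Polyadenylated RNA was sequenced from HCT116 cells, a human colon carcinoma line, in 3 forms with 3 libraries each. HUWE1-P cells are parental. HUWE1-WT and HUWE1-CS cells carry a CRISPR-edited endogenous gene for HUWE1, a HECT ubiquitin ligase, in which the catalytic cysteine codon was replaced by a cysteine or by a serine codon, and both carry a blasticidin resistance cassette that the parental cells lack. Edited cells were grown from single clones, and the sources do not say whether the 3 libraries of a line stand for 1 clone or several, so that mutation and clone cannot be told apart and p-values measure the spread between these libraries. All lines were untreated in high-glucose medium with serum, non-essential amino acids and 2-mercaptoethanol. HUWE1-WT cells, edited without a change of the residue, are the control for editing, and counts per gene do not show which codon a library carries.

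Totals lay between 1610984 and 2060349 counts per library, so that 3 counts, taken as the floor, are between 1.45 and 1.86 CPM (counts scaled to a common library total, normalized by TMM). The members took between 0.478% and 0.51% of the counts of a library, and the counts of a member in a library lay between 5 and 1757. Of 9 colon epithelium markers, EPCAM, CDH1, KRT8, KRT18, KRT19 and ELF3 were present, while CDH17, VIL1 and CEACAM5 were not in the table. In HUWE1-CS against HUWE1-P cells, EPCAM, CDH1 and ELF3 were called higher, KRT8 and KRT18 lower, and KRT19 was not called. These 5 of 6 are 83.3%, where 17.0% of all genes were called. Of 8 markers of other cells, COL1A1 and CD68 were in the table, and their summed level was between 31.7 and 36.5 CPM in HUWE1-P, between 30.1 and 40.1 CPM in HUWE1-WT and between 15.1 and 23.7 CPM in HUWE1-CS libraries. The part of either set in the results below was not tested. In bulk RNA, fewer cells of a kind and less RNA per cell cannot be told apart.

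Windows from 250 bases before to 50 bases after the RefSeq start were searched on both strands for the core of the C/EBP-ATF response element, TGATGNAA, the sequence through which ATF4 is known to act. A window was available for 27 members, and GPT2, PSPH, PYCR1, SHMT2 and SLC7A11 had none. Of the 27, 10 held the core (37%), against 221 of 9041 genes of the counts table (2.44%) and 1217 of 27305 genes with a window (4.46%). A gene with several windows was counted if any of them held the core. By window, the core was in 12 of 46 windows of members and in 1270 of all 35116. The list was made of genes of the ATF4 response, and these shares were not tested. The windows of MTHFD1L and SLC3A2 held it after the start. The other 8 are shown because their core lies before the start, with the core in capitals, 5′ to 3′ on the strand of the gene, at GRCh37 (hg19) positions. TTGCATCA is the core read on the opposite strand.
ASNS, chr7:97501770-97501799, minus strand: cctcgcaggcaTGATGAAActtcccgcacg
SLC1A5, chr19:47288150-47288179, minus strand: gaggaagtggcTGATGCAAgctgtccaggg
CHAC1, chr15:41245449-41245478, plus strand: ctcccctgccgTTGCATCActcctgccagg
ATF3, chr1:212738528-212738595, plus strand: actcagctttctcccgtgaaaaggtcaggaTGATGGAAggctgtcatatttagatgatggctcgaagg
CEBPG, chr19:33864947-33865014, plus strand: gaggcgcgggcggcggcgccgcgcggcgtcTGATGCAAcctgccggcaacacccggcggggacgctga
JDP2, chr14:75894679-75894724, plus strand: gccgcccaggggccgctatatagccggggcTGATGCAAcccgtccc
GOT1, chr10:101190542-101190609, minus strand: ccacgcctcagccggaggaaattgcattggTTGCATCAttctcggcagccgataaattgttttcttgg
HERPUD1, chr16:56965848-56965915, plus strand: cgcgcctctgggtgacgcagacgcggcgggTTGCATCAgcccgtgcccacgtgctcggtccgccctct

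The core of JDP2 began 16 bases before the start, that of CEBPG 42, ASNS 68, SLC1A5 97, HERPUD1 176, ATF3 191, GOT1 198 and CHAC1 209 bases. Some genes have several RefSeq starts, and the distance is to the nearest one whose window held the core. SLC1A5 has 3 windows, and the start meant here lies inside the gene, whose annotated 5′ end is at 47291851. In the annotation, the stretches of ASNS, SLC1A5 and CHAC1 lie in an exon of another transcript of the gene, outside its coding sequence, those of CEBPG and JDP2 in an intron of another transcript, and those of ATF3, GOT1 and HERPUD1 upstream of the annotated gene. Among the genes whose level was called different below, ASNS and SLC1A5 hold the core. These letters were not found in the windows of ATF4, PCK2, MTHFD2, PSAT1, PHGDH, SESN2 and SLC7A5, which says nothing of elements elsewhere in these genes.

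Levels of the members per length of transcript, averaged over the 3 lines, ran from 1.64 CPM per kb for JDP2, a bZIP repressor, to 340 CPM per kb for ATF4. CTH and CHAC1 followed JDP2 at the low end with 4.07 and 4.69 CPM per kb. SLC3A2, SLC7A5 and PYCR1 followed ATF4 at the high end with 192, 170 and 164 CPM per kb. ATF4 thus had the highest level of the 32 members in cells that had received no stress treatment.

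Comparing HUWE1-WT with HUWE1-P cells asks whether editing alone moved these genes. No member was called at a false discovery rate (FDR) of at most 0.01 by edgeR's quasi-likelihood test, against 0.0617% of all genes. At an unadjusted p under 0.05 there were 4 of 32, where 629 of all 11350 genes were. The lowest FDR of a member was 0.631, that of CEBPG. DESeq2 called 0 members and 0 of all genes. The median log2 fold change of the members was 0.07 against −0.00 for all genes. Values were positive for 22 of 32 members and for 5626 of all genes. The largest log2 fold change of a member in size was that of CHAC1, at −0.44 ± 0.37 (SE), which rests on few counts.

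HUWE1-CS was then compared with HUWE1-P cells. The genes that were higher in HUWE1-CS cells were PCK2, ATF4, MTHFD2, PSAT1, PHGDH, SESN2 and ASNS. A transporter and an enzyme were lower, SLC7A5 and SHMT2. These are 9 of 32 members, or 28.1%, where 17.0% of all genes were called. The count was 4 with DESeq2 and 5 without HUWE1-P replicate 1. Over all genes the count fell as well, from 1934 to 1088 with DESeq2 and to 1501 without HUWE1-P replicate 1. By direction, 7 of the 32 members were higher, where 8.46% of all genes were, and 2 of the 32 were lower, where 8.58% of all genes were. The median log2 fold change over the members was 0.14 against −0.01 over all genes, with 17 positive and 15 negative values. It was 0.08 with a trend with transcript length removed (the members have a median length of 2353 bases, all genes 3348) and 0.08 without HUWE1-P replicate 2.

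Against HUWE1-WT cells, 6 of 32 members were called (18.8%, background 15.5%). PCK2, ATF4 and MTHFD2 were higher (background for higher 7.42%), and SLC7A5, SHMT2 and SLC1A5 were lower (background for lower 8.08%). The median was −0.00, like that over all genes. The 2 comparisons share the HUWE1-CS libraries and are therefore given side by side. Higher in both were 3 members (background 6.01%) and lower in both 2 members (background 6.22%), and no member was called in opposite directions. The HUWE1-CS libraries lay above all 6 control libraries for 7 members, where 12.9% of all genes did so, and below all 6 for 4 members, where 13.4% did so.

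**Figure D1:**
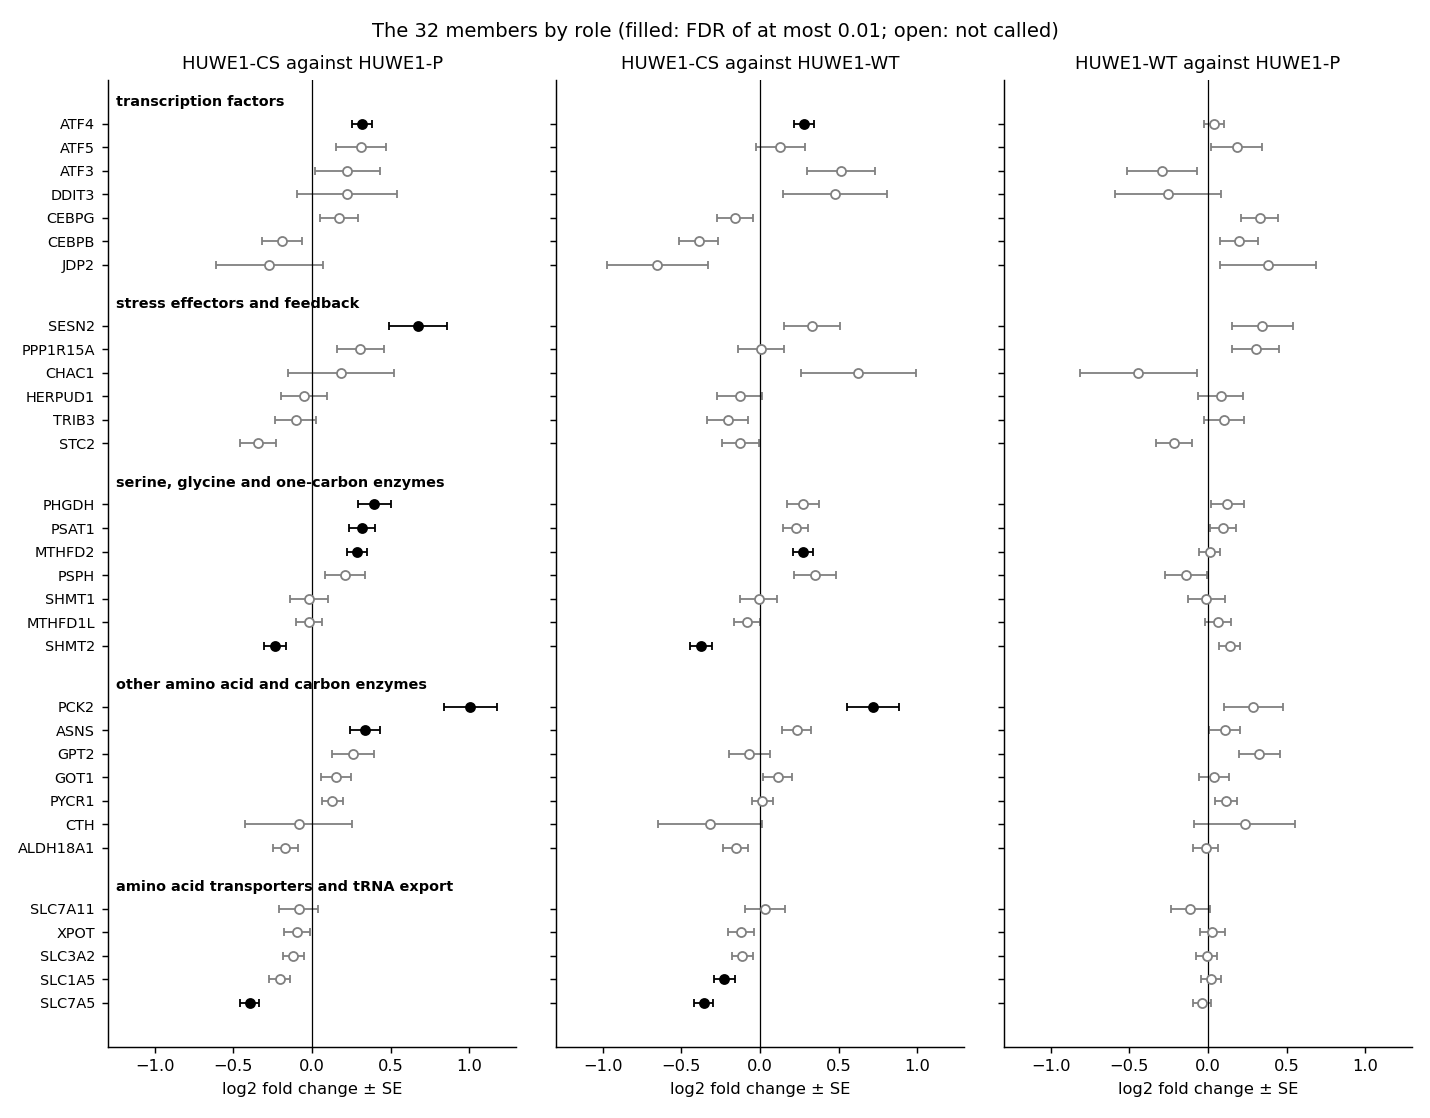
Log2 fold change ± SE (n = 3 libraries per line) of the 32 members, grouped by role, in the 3 comparisons; filled points have an FDR of at most 0.01. Filled points lie on both sides of 0 in the HUWE1-CS comparisons, 7 higher and 2 lower against HUWE1-P, 3 and 3 against HUWE1-WT, and there are none in HUWE1-WT against HUWE1-P.

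Among the 7 transcription factors only ATF4 was called. Its level was 460, 446 and 424 CPM in the HUWE1-P libraries, 446, 455 and 461 CPM in the HUWE1-WT libraries and 518, 572 and 564 CPM in the HUWE1-CS libraries. Every HUWE1-CS library was above every control library, and the control lines overlapped. ATF4 was 1.25-fold higher than in HUWE1-P cells (log2 fold change 0.32 ± 0.06, FDR 3.5e-05) and 1.22-fold higher than in HUWE1-WT cells (0.28 ± 0.06, FDR 3.0e-04), and both calls held under every alternative that was run.

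The partners and targets of ATF4 among the factors did not pass the threshold. DDIT3 (CHOP), which drives cell death under lasting stress, averaged 8.77 CPM in HUWE1-P, 7.24 CPM in HUWE1-WT and 10.1 CPM in HUWE1-CS cells, with an SE of 0.32 on its log2 fold change of 0.22 against HUWE1-P. For ATF3, a stress-induced bZIP factor, the means were 19.1, 15.5 and 22.2 CPM. ATF5, which like ATF4 is translated under eIF2 phosphorylation, had means of 30.4, 34.4 and 37.7 CPM. All 3 had positive values in both comparisons, and none had an FDR below 0.0698. CEBPB, CEBPG and JDP2 are bZIP proteins that can pair with ATF4. CEBPB averaged 66.8, 76.7 and 58.6 CPM, with a log2 fold change against HUWE1-WT of −0.39 ± 0.12 that missed the threshold (FDR 0.0132). CEBPG had 0.17 ± 0.12 against HUWE1-P and −0.16 ± 0.11 against HUWE1-WT, and JDP2, near the floor at 6.98 CPM in HUWE1-CS cells, had SEs over 0.32 in both.

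Of the stress effectors and feedback genes, SESN2 was called, against HUWE1-P only. Sestrin 2 restrains mTORC1 when leucine is short. It was measured at 16.1, 22.5 and 19.3 CPM in HUWE1-P, 23.2, 25.6 and 25 CPM in HUWE1-WT and 32.6, 28.4 and 31.9 CPM in HUWE1-CS libraries. The HUWE1-CS libraries were above all others, and each HUWE1-WT library was above each HUWE1-P library. The difference from HUWE1-P was 1.6-fold (log2 0.67 ± 0.19, FDR 0.00366), that from HUWE1-WT was 0.33 ± 0.18 (FDR 0.179), and that of HUWE1-WT from HUWE1-P was 0.34 ± 0.20 (FDR 0.911). The call against HUWE1-P was lost with DESeq2 (FDR 0.0357) and without any one of HUWE1-P replicates 1 and 3 and HUWE1-CS replicates 1 and 3 (FDR between 0.014 and 0.0313).

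The other 5 genes of this role did not pass. CHAC1, a glutathione-degrading enzyme that is a sensitive reporter of ATF4, averaged 7.41 CPM in HUWE1-P, 5.46 CPM in HUWE1-WT and 8.53 CPM in HUWE1-CS cells, with SEs of 0.34 and 0.37, so that a change of the size seen for ATF4 could not have been resolved at this depth. TRIB3, a pseudokinase that feeds back on ATF4, averaged 55.1, 58.8 and 51.1 CPM, and its log2 fold changes were −0.10 ± 0.13 and −0.21 ± 0.13. PPP1R15A (GADD34), which brings a phosphatase to eIF2, had 0.31 ± 0.15 against HUWE1-P and 0.00 ± 0.15 against HUWE1-WT. STC2, a secreted glycoprotein, had −0.34 ± 0.11 against HUWE1-P (FDR 0.0185) and −0.13 ± 0.12 against HUWE1-WT. HERPUD1, of the ER degradation machinery, had −0.05 ± 0.15 and −0.13 ± 0.15.

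**Figure D2:**
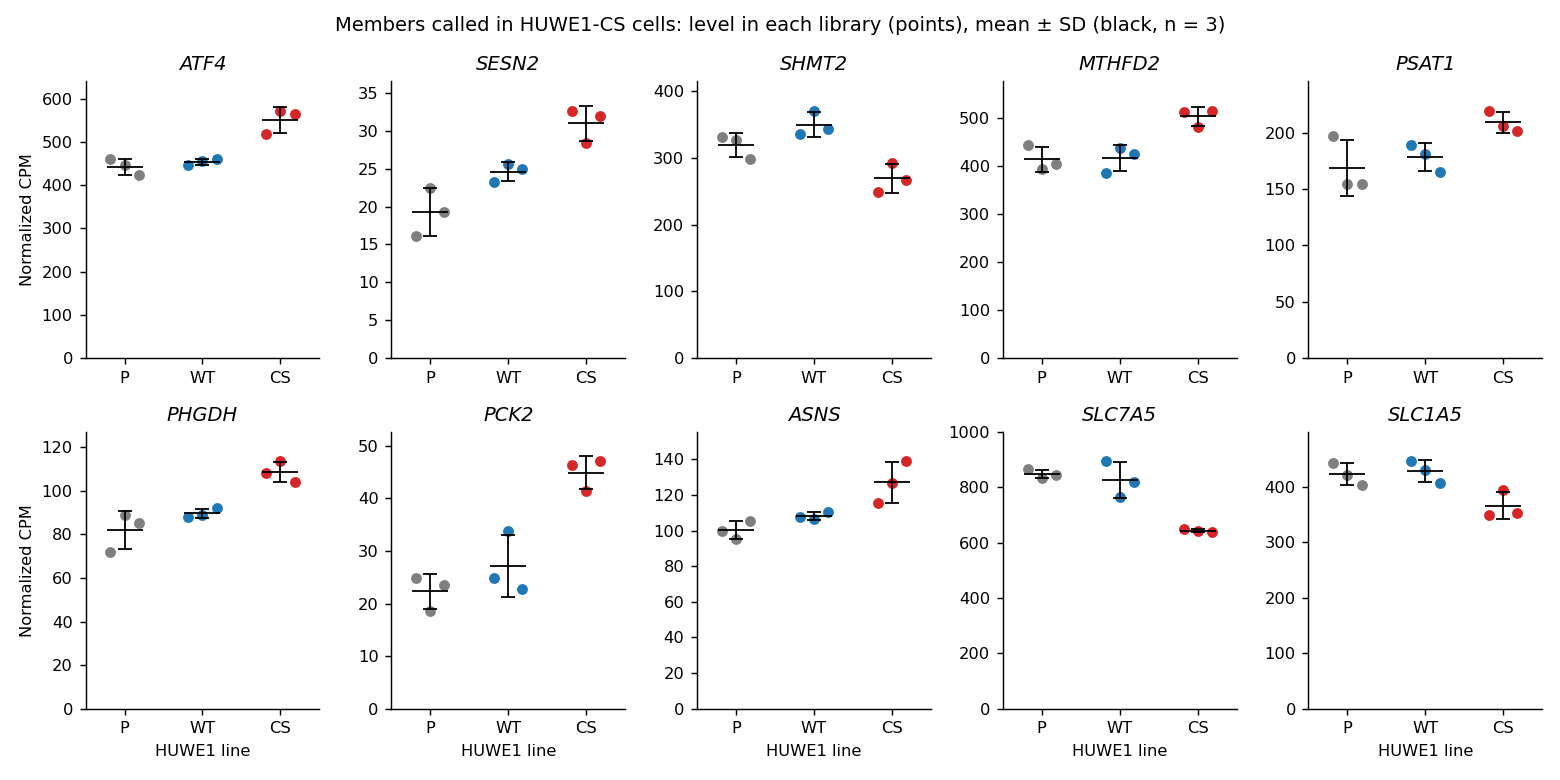
Normalized CPM in each library (points) with mean ± SD (black, n = 3) of the 10 members called in HUWE1-CS against HUWE1-P or HUWE1-WT cells; each axis starts at 0. The HUWE1-CS points of SHMT2, SLC7A5 and SLC1A5 lie below all 6 control points, and those of the other 7 genes lie above all 6.

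Serine is made from a glycolytic intermediate by a short path, and the first and second enzymes of that path were called higher against HUWE1-P. PHGDH, the first, was at 72, 88.7 and 85.3 CPM in HUWE1-P, 88.1, 88.9 and 91.9 CPM in HUWE1-WT and 108, 113 and 104 CPM in HUWE1-CS libraries. PSAT1, the second, was at 197, 154 and 154 CPM in HUWE1-P, 190, 182 and 165 CPM in HUWE1-WT and 220, 206 and 202 CPM in HUWE1-CS libraries. For both, all HUWE1-CS libraries were above all control libraries, and for PSAT1 the gap to HUWE1-P replicate 1 was small. Against HUWE1-P, PHGDH was 1.32-fold higher (log2 0.40 ± 0.10, FDR 0.00165) and PSAT1 1.25-fold higher (0.32 ± 0.08, FDR 0.00152). Against HUWE1-WT they had 0.28 ± 0.10 (FDR 0.0355) and 0.23 ± 0.08 (FDR 0.0311), and were not called. PSPH, the last enzyme of the path, averaged 52.9, 48.2 and 61.6 CPM in the HUWE1-P, HUWE1-WT and HUWE1-CS lines and was not called in either comparison (FDR 0.237 and 0.0418).

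The calls of PHGDH and PSAT1 against HUWE1-P rest on few libraries. With DESeq2 their FDRs were 0.016 and 0.0185. PHGDH was lost without HUWE1-P replicate 1 (0.0296) or HUWE1-CS replicate 2 (0.0107), and PSAT1 without HUWE1-P replicate 2 (0.0234) or 3 (0.0381) or HUWE1-CS replicate 1 (0.0187).

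Among the mitochondrial enzymes that turn serine into glycine and one-carbon units, MTHFD2 was called higher, SHMT2 lower, and MTHFD1L was not called. MTHFD2, which oxidizes methylene-tetrahydrofolate, was at 444, 393 and 405 CPM in HUWE1-P, 387, 438 and 425 CPM in HUWE1-WT and 514, 482 and 516 CPM in HUWE1-CS libraries. SHMT2, which splits serine to glycine one step before it, was at 331, 327 and 298 CPM in HUWE1-P, 336, 371 and 343 CPM in HUWE1-WT and 249, 293 and 267 CPM in HUWE1-CS libraries. All HUWE1-CS libraries were thus above the controls for MTHFD2 and below them for SHMT2, the latter narrowly against HUWE1-P replicate 3. MTHFD2 was 1.22-fold and 1.21-fold higher than in HUWE1-P and HUWE1-WT cells (log2 0.28 ± 0.06, FDR 3.3e-04, and 0.27 ± 0.06, FDR 6.4e-04). SHMT2 was 1.18-fold and 1.3-fold lower (log2 −0.24 ± 0.07, FDR 0.00704, and −0.38 ± 0.07, FDR 1.2e-05).

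The call of SHMT2 against HUWE1-P was lost with DESeq2 (FDR 0.0411) and without HUWE1-P replicate 1 (0.0502) or 2 (0.0365) or HUWE1-CS replicate 1 (0.0844) or 3 (0.0316). That of MTHFD2 against HUWE1-WT was lost without HUWE1-WT replicate 1 (0.0124). SHMT1, the cytosolic counterpart of SHMT2, averaged 70.8, 70.2 and 69.9 CPM in the HUWE1-P, HUWE1-WT and HUWE1-CS lines, with log2 fold changes of −0.02 ± 0.12 and −0.01 ± 0.12. MTHFD1L, the mitochondrial enzyme that releases formate, averaged 154, 161 and 152 CPM, with −0.02 ± 0.08 and −0.08 ± 0.08. Neither was called.

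Of the other amino acid and carbon enzymes, PCK2 had the largest fold change of any called member. PCK2 is the mitochondrial phosphoenolpyruvate carboxykinase, which feeds mitochondrial carbon into phosphoenolpyruvate. It was at 24.8, 18.5 and 23.6 CPM in HUWE1-P, 24.9, 33.8 and 22.7 CPM in HUWE1-WT and 46.3, 41.4 and 47 CPM in HUWE1-CS libraries. The lowest HUWE1-CS library was above the highest control, HUWE1-WT replicate 2. PCK2 was 2.01-fold higher than in HUWE1-P (log2 1.01 ± 0.17, FDR 1.1e-06) and 1.65-fold higher than in HUWE1-WT cells (0.72 ± 0.16, FDR 3.6e-04), and it kept both calls under every alternative that was run.

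ASNS makes asparagine and, as shown above, holds a response element core shortly before a RefSeq start. It was at 99.9, 95.4 and 106 CPM in HUWE1-P, 108, 106 and 111 CPM in HUWE1-WT and 116, 127 and 139 CPM in HUWE1-CS libraries. All HUWE1-CS libraries were above all controls. The difference was 1.26-fold against HUWE1-P (log2 0.34 ± 0.10, FDR 0.00429) and did not pass against HUWE1-WT (0.23 ± 0.09, FDR 0.061). Against HUWE1-P the call was lost with DESeq2 (FDR 0.0301) and without HUWE1-P replicate 1 (0.0166) or 2 (0.0288) or HUWE1-CS replicate 3 (0.043).

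No other enzyme of this role was called. ALDH18A1 and PYCR1 act in proline synthesis. ALDH18A1 was lower in every HUWE1-CS library than in every control, at 166 ± 4.54 CPM (SD) against 187 ± 7.66 and 185 ± 9.04 CPM in HUWE1-P and HUWE1-WT cells, but was not called (FDR 0.103 and 0.152). PYCR1 averaged 351, 379 and 383 CPM, and its log2 fold changes were 0.13 ± 0.07 and 0.01 ± 0.07. The transaminases GPT2, for alanine, and GOT1, for aspartate, had 0.26 ± 0.13 and 0.15 ± 0.09 against HUWE1-P and −0.07 ± 0.13 and 0.11 ± 0.09 against HUWE1-WT. CTH, which makes cysteine from cystathionine, averaged between 7.79 and 9.67 CPM in the 3 lines, with SEs over 0.33 against both controls.

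Of the 5 transporters and tRNA exporter genes, none was called higher and 1 was called lower against HUWE1-P, where the background was 8.46% and 8.58%. SLC7A5 (LAT1) brings in leucine and other large neutral amino acids, and had the smallest p of all members in both comparisons. It was at 865, 834 and 847 CPM in HUWE1-P, 894, 764 and 821 CPM in HUWE1-WT and 649, 643 and 640 CPM in HUWE1-CS libraries. The 3 HUWE1-CS libraries lay close together and well below every control. SLC7A5 was 1.32-fold lower than in HUWE1-P (log2 −0.40 ± 0.06, FDR 5.7e-08) and 1.28-fold lower than in HUWE1-WT cells (−0.36 ± 0.06, FDR 9.6e-07), and was called in both under every alternative that was run.

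SLC1A5 (ASCT2) is the glutamine carrier with a response element core before a RefSeq start that lies inside the annotated gene. It was at 443, 422 and 404 CPM in HUWE1-P, 446, 431 and 406 CPM in HUWE1-WT and 350, 394 and 353 CPM in HUWE1-CS libraries. HUWE1-CS replicate 2 was only just below the lowest control. SLC1A5 was called lower against HUWE1-WT (1.17-fold, log2 −0.23 ± 0.07, FDR 0.00658) and narrowly missed the threshold against HUWE1-P (−0.21 ± 0.07, FDR 0.0128), where the 2 controls averaged 428 and 423 CPM. The call against HUWE1-WT was lost with DESeq2 (FDR 0.0286), in a fit of only the lines compared (0.0114), and without HUWE1-WT replicate 1 (0.0367) or 2 (0.0231) or HUWE1-CS replicate 1 (0.0518) or 3 (0.0498).

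SLC3A2, the heavy chain that SLC7A5 and SLC7A11 need at the membrane, averaged 373, 371 and 343 CPM in the HUWE1-P, HUWE1-WT and HUWE1-CS lines, with log2 fold changes of −0.12 ± 0.07 and −0.11 ± 0.07 (FDR 0.184 and 0.227). SLC7A11 exchanges cystine for glutamate and averaged 67.1, 62.4 and 63.5 CPM, with −0.08 ± 0.12 and 0.03 ± 0.13. XPOT exports tRNA from the nucleus, and its values were −0.10 ± 0.08 and −0.12 ± 0.08. None of these 3 was called. By role, then, members called higher against HUWE1-P were 1 of 7 transcription factors, 1 of 6 stress effectors, 3 of 7 serine, glycine and one-carbon enzymes, 2 of 7 other enzymes and 0 of 5 transporters. With 8.46% of all genes called higher and 5 to 7 genes a role, a count of 0 or 1 is near the background and sets no role apart. Against HUWE1-WT (background 7.42%) the counts called higher were 1, 0, 1, 1 and 0 in the same order. SHMT2, of the serine, glycine and one-carbon enzymes, was called lower in both comparisons. Of the members called higher against HUWE1-P, PSAT1, PHGDH, SESN2 and ASNS lost the call with DESeq2.

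**Figure D3:**
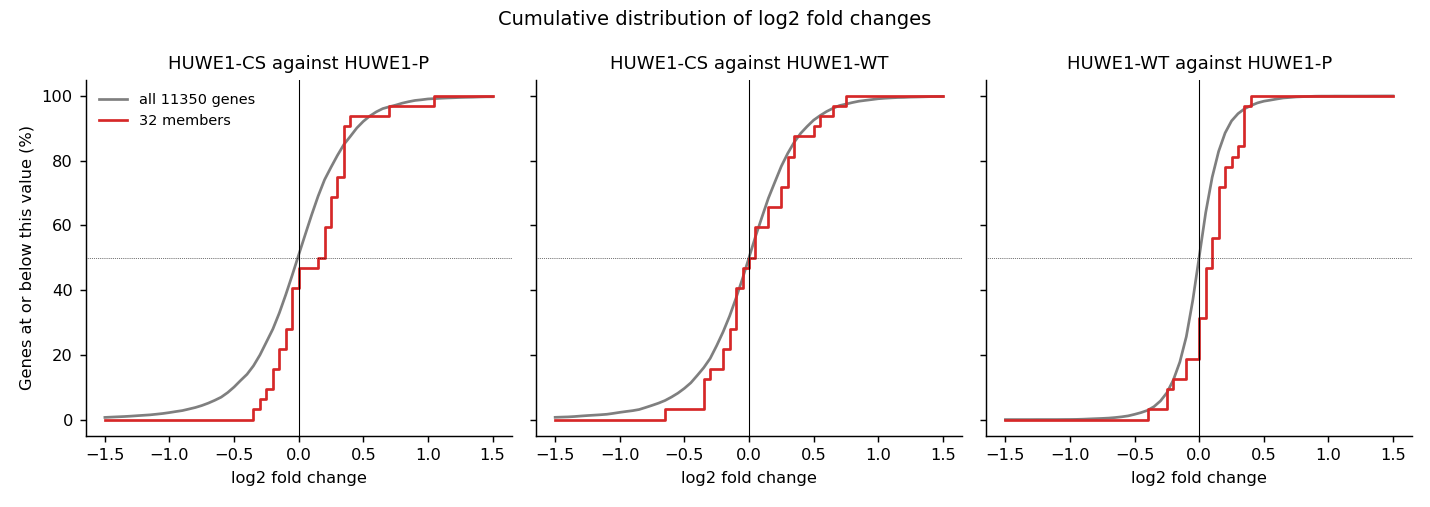
Percent of genes with a log2 fold change at or below the value on the horizontal axis, for all 11350 genes (grey) and the 32 members (red), in the 3 comparisons. The median over the members is 0.14 against HUWE1-P and −0.00 against HUWE1-WT, where that over all genes is −0.01 and −0.00.

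Some members share sequence or position with other genes, and the sources do not say how the counting treated strand or reads of several origins. Annotated pseudogenes exist for ASNS, ATF4, MTHFD2, PSAT1, PSPH, SHMT1, SLC7A5 and XPOT. Of these, only SLC7A5P2 was in the table, at between 19 and 45 counts per library, with a log2 fold change against HUWE1-P of −0.53 (FDR 0.0621). Genes on the opposite strand that were in the table include those that overlap ATF5 (NUP62), DDIT3 (MARS and MBD6), MTHFD2 (SLC4A5) and SHMT1 (SMCR8). None of them was called in either comparison. MARS had between 402 and 552 counts per library next to the few counts of DDIT3, and NUP62 between 205 and 327 next to ATF5, so that the values of DDIT3 and ATF5 are uncertain.

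Further lists place the members in their pathway. Upstream of ATF4, of 20 genes for eIF2, its kinases and its recycling, 1 was called higher and 3 lower against HUWE1-P (20% in all, near the 17.0% of all genes), with a median of −0.06. The higher one was EIF2AK1 (HRI), the heme-sensing kinase (log2 0.28, FDR 0.00125). The lower ones were PPP1R15B, the constitutive partner of the eIF2 phosphatase (−0.40, FDR 2.6e-04), EIF2B1, a subunit of the exchange factor of eIF2 (−0.49, FDR 9.9e-04), and EIF2S1, eIF2 alpha itself (−0.26, FDR 0.00551). The stress kinases EIF2AK2 (PKR), EIF2AK3 (PERK) and EIF2AK4 (GCN2) had −0.15, −0.03 and 0.17 and were not called. Against HUWE1-WT, PPP1R15B and EIF2B1 were lower and IMPACT, an inhibitor of GCN2, was higher (0.42, FDR 0.00594). These 3 are 15% of the list, near the 15.5% of all genes.

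Of 14 other bZIP factors, 1 was called higher, NFE2L1 (0.29, FDR 4.3e-04), which induces proteasome genes, and 2 lower, CREB3L2 (−0.67, FDR 7.4e-05), an ER-bound factor, and CREBZF (−0.42, FDR 0.00422). These 3 are 21.4% of the list, near the 17.0% of all genes. Only CREB3L2 was called against HUWE1-WT (−0.78, FDR 4.3e-06), or 7.14% of the list where 15.5% of all genes were called. The ER chaperone list has 18 genes of the ATF6 and XBP1 arms, which report unfolded protein in the ER. It also holds genes that are not chaperones, among them XBP1, ERN1, SEL1L, EDEM1 and SYVN1. DNAJC3 is also in the eIF2 list, and XBP1 is also among the other bZIP factors. None of the 18 was called against HUWE1-P by edgeR. DESeq2 called 0 of them. Of all 11350 genes, edgeR called 1934 and DESeq2 1088. At an unadjusted p under 0.05 there were 7 of the 18, where 4100 of all 11350 genes were. The lowest FDR in the list was 0.0139. Of its 18 values, 14 were negative, where 5778 of all genes were. The median was −0.13 against −0.01 over all genes. Against HUWE1-WT, HSPA5 (BiP) was lower (−0.23, FDR 7.6e-04), as was SEL1L (−0.42, FDR 0.00231), a part of the ER degradation machinery. These 2 are 11.1% of the list, where 15.5% of all genes were called and 8.08% were lower.

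Further genes linked to ATF4 were divided as well. Of 29, 2 were called higher and 5 lower against HUWE1-P, with a median of −0.07. That is 24.1% of the list against 17.0% of all genes, where 8.46% were higher and 8.58% lower. GDF15, a secreted stress hormone, averaged 124 CPM in HUWE1-P, 142 CPM in HUWE1-WT and 430 CPM in HUWE1-CS cells (log2 1.79, FDR 3.7e-37, and 1.59, FDR 5.6e-34). LARS, a tRNA synthetase for leucine, had 0.34 (FDR 2.7e-04). The lower genes were the amino acid carriers SLC38A2 (−0.62, FDR 1.5e-15), SLC7A1 (−0.53, FDR 3.9e-07) and SLC38A1 (−0.36, FDR 1.9e-05), the tyrosine tRNA synthetase YARS (−0.38, FDR 2.1e-05) and CCPG1, an ER-phagy receptor at a low level (−1.40, FDR 0.00142). The 3 carriers were also called lower against HUWE1-WT (SLC38A2 −0.59, SLC7A1 −0.45, SLC38A1 −0.27). Of these 7 genes, all but LARS and YARS were called in the same direction against HUWE1-WT. In that comparison 5 of 29 were called in all (17.2%), near the 15.5% of all genes.

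Of 22 folate and one-carbon genes outside the list of members, 0 were higher and 5 lower against HUWE1-P, or 22.7% against 17.0% of all genes called and 8.58% lower. They included MTHFD1, the cytosolic folate enzyme (−0.33, FDR 1.9e-04), MTR, methionine synthase (−0.56, FDR 2.2e-04), SLC19A1, the reduced folate carrier (−0.39, FDR 0.00241), and MAT2A, which makes S-adenosylmethionine (−0.22, FDR 0.00991). This count fell to 2 with DESeq2 and to 2 or 3 without any one of HUWE1-P replicates 1 and 3 and the 3 HUWE1-CS libraries. Over all genes the count fell from 1934 to 1088 with DESeq2. It fell to between 1466 and 1650 without any one of these libraries. Against HUWE1-WT, 1 gene of the list was higher, GART (0.24, FDR 0.00695). The 4 lower ones were MTHFD1, SLC19A1, SFXN1 (−0.31, FDR 0.00158), a mitochondrial serine carrier, and FPGS (−0.41, FDR 0.00282). These 5 are 22.7% of the list, where 15.5% of all genes were called, 7.42% higher and 8.08% lower. That count of 5 was 1 with DESeq2 and 2 or 3 without any one of the 6 libraries compared. Over all genes the count fell from 1759 to 998 with DESeq2. It fell to between 1373 and 1510 without any one of the 6.

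**Figure D4:**
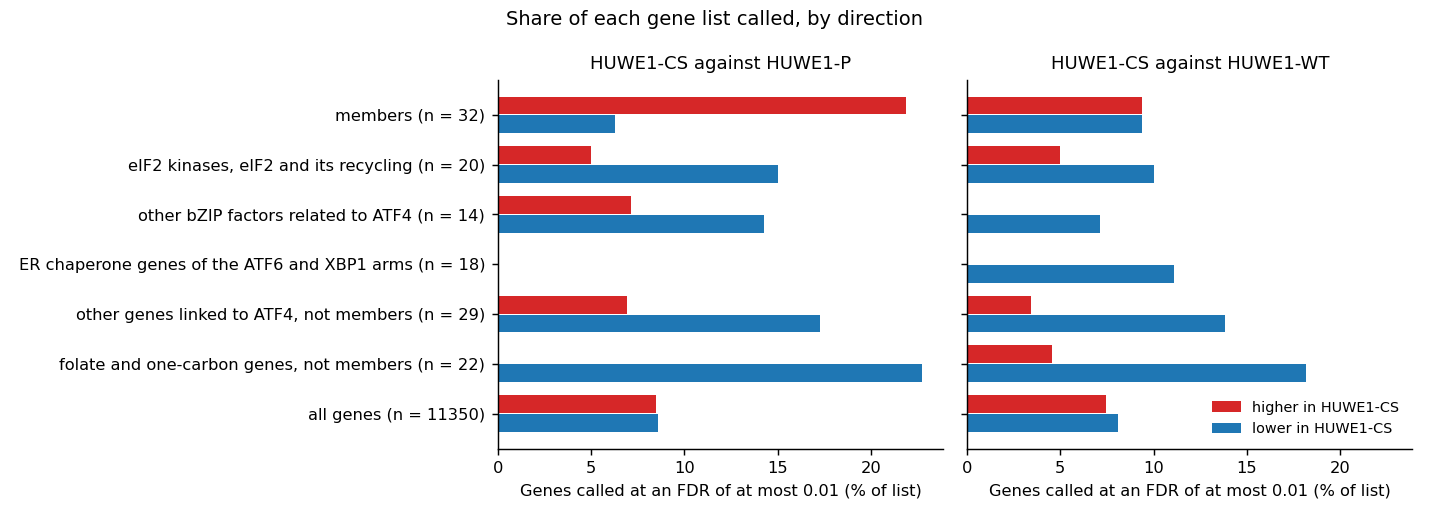
Percent of each gene list called higher (red) or lower (blue) in HUWE1-CS cells at an FDR of at most 0.01, against HUWE1-P (left) and HUWE1-WT (right), with the number of genes in each list and all genes as the background. Against HUWE1-P the members have the longest bar for higher (7 of 32), and the folate list has the longest bar for lower (5 of 22).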

How the data were processed

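Polyadenylated RNA of 9 libraries was sequenced with single-end reads. The authors demultiplexed with bcl2fastq 2.20, trimmed with Skewer, mapped to hg19 with STAR 2.5.4 and deposited raw counts of reads per gene, without normalization. How reads were assigned to genes (tool, annotation and strand) and how low genes were left out is not given in the sources used here. Deposited tables of edgeR results (version 3.26.8, per the submitters' processing notes) hold the authors' own comparisons and were not used.

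Counts were analysed with R 4.3.3, edgeR 4.0.16 (TMM, glmQLFit with legacy = TRUE, glmQLFTest, line as the only term, all 9 libraries), with Benjamini-Hochberg adjustment over all 11350 genes and a call at an FDR of at most 0.01. FDRs in the text are from this test unless DESeq2 (1.42.0) is named. Values are TMM-normalized CPM, and SEs are on the log2 scale. Replicate libraries differed by more than sampling noise (chi-square per degree of freedom 1.16 to 1.65), and none was treated as a duplicate. The floor of 3 counts covers counting error only, while SEs include the spread between libraries.

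Alternatives were DESeq2, edgeR's present estimator, RLE size factors, at least 10 counts in each library, only the lines compared, the replicate number as a block, an FDR of 0.05, removal of a trend with transcript length, and omission of each library. Positions and lengths came from GENCODE on GRCh37, which placed all 32 members and 11114 genes. Promoter windows came from RefSeq on GRCh38.p14 and were placed on GRCh37 by exact match. The procedures were tested on simulated data. Python 3.11.15 drew the plots.

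The members and all lists were chosen with earlier results of these data known. Every member was reported, called members with each library, and of each further list the called genes with the smallest 2 p-values in each direction against HUWE1-P. The other genes of these lists were named after their values were seen. Some genes are not reported here.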

Additional observations from a re-analysis of the deposited data

How the results depend on the processing

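The counts of called members kept within 1.5 times of those reported under most alternatives. Against HUWE1-P, 9 members became 4 with DESeq2 and between 5 and 10 when 1 library was left out. The 5 were those without HUWE1-P replicate 1, where the count over all genes fell from 1934 to 1501. Against HUWE1-WT, 6 members became 10 at an FDR of 0.05, where the count over all genes rose from 1759 to 2774. They lay between 4 and 7 when 1 library was left out. HUWE1-WT against HUWE1-P stayed at 0 throughout. The medians over the members lay between 0.08 and 0.16 against HUWE1-P and between −0.04 and 0.01 against HUWE1-WT. Over all genes, DESeq2 called 1088 and 998 genes where edgeR called 1934 and 1759. With at least 10 counts in each library, CHAC1, JDP2 and CTH could not be tested, and no called member was lost.

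The replicate numbers did not pair the libraries, since deviations from the line means correlated between −0.02 and 0.06 for equal numbers and between −0.07 and 0.03 for other numbers. The replicate block gave 10 and 6 called members, with SLC1A5 called lower against HUWE1-P as well (FDR 0.00686). With the length trend removed, SLC1A5 against HUWE1-P (FDR 0.00363) and CEBPB against HUWE1-WT (FDR 0.00463) were called lower. Without HUWE1-WT replicate 1 or HUWE1-CS replicate 2, SLC1A5 was also called against HUWE1-P (FDR 0.00878 and 0.00406), and without HUWE1-WT replicate 3, CEBPB was called against HUWE1-WT (−0.54, FDR 0.00105).

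No called member changed direction. Of 1146 values of single members, 31 had the other sign, all of uncalled members. With the length trend removed, those against HUWE1-P were XPOT at 0.0001 and SLC7A11 at 0.0632, and with the replicate block in addition XPOT at 0.0017 and SLC7A11 at 0.0625. Against HUWE1-WT they were PPP1R15A at −0.0134 and PYCR1 at −0.007, and with the block −0.0148 and −0.0073. When 1 library was left out, the log2 fold change against HUWE1-P lay between −0.0693 and 0.0293 for MTHFD1L, −0.51 and 0.15 for CTH, −0.19 and 0.15 for HERPUD1, −0.13 and 0.007 for SLC7A11 and −0.085 and 0.11 for SHMT1. Against HUWE1-WT it lay between −0.13 and 0.12 for PPP1R15A, −0.05 and 0.0631 for PYCR1, −0.12 and 0.15 for SLC7A11 and −0.0734 and 0.0575 for SHMT1. The cause was not tested.

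Depth limits the members with few counts: CHAC1, JDP2, CTH and DDIT3 had SEs over 0.30 and would show only large differences. Without 1 library, the ER chaperone list had 1 called gene against HUWE1-P without HUWE1-P replicate 1 or HUWE1-WT replicate 1, and 1 in place of 2 against HUWE1-WT without HUWE1-WT replicate 2 or 3 or HUWE1-CS replicate 2. The list of other genes linked to ATF4 had 3 in place of 5 against HUWE1-WT without HUWE1-WT replicate 3.
The counts of the further lists were followed under the same alternatives after the data were seen. With DESeq2 the eIF2 list had 2 in place of 4 called genes against HUWE1-P, and against HUWE1-WT the ER chaperone list had 1 in place of 2 and the other genes linked to ATF4 had 3 in place of 5. With the length trend removed, the ER chaperone list had 2 and 4 called genes against HUWE1-P and HUWE1-WT, the other genes linked to ATF4 had 8 against HUWE1-WT, and the other bZIP factors 2. With the replicate block the ER chaperone list had 1 against HUWE1-P. At an FDR of 0.05 it had 4 in both comparisons. Against HUWE1-WT the eIF2 list then had 7, the other genes linked to ATF4 8 and the other bZIP factors 2. At that threshold 2999 and 2774 of all genes were called against HUWE1-P and HUWE1-WT.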
